A study of Mus musculus with 8 samples.

Results

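The lysosomal cathepsins described here are 10 genes, Ctsa, Ctsb, Ctsd, Ctse, Ctsf, Ctsh, Ctsk, Ctsl, Ctss and Ctsz, taken by gene symbol together with every probe set that the platform annotation gives them. They hold 21 of the 45101 probe sets of the array and 10 of its 18193 named genes. RNA came from spleen cells of leukemic mice in 2 groups. Mice with the truncated fusion carried CBFb-SMMHCd179-221, which lacks a stretch needed for tight binding of RUNX1, and were taken 3 weeks after birth without any mutagen named in the labels. Mice with the full-length fusion carried CBFb-SMMHC and were taken 2 months after ENU, a chemical mutagen that damages DNA. Each group had 4 Affymetrix arrays, which the titles assign to 2 animals: animal 1 has a single array, and animal 2 has arrays 1 to 3. The sample labels call both groups chimeras, in which only some cells carry the fusion, while the series text speaks of knock-in mice for the full-length group. Age, mutagen and fusion differ together between the groups and cannot be told apart. The comparison asks which genes differ in leukemic spleen between the truncated and the full-length fusion.

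Cathepsins are proteases that are made as inactive precursors, carried to the lysosome and activated there by the acid pH. Most belong to the papain family and cut with a cysteine in the active site, among them the endopeptidases Ctsl, Ctss, Ctsk and Ctsf and the exopeptidases Ctsb, Ctsh and Ctsz. Ctsd and Ctse are aspartic proteases related to pepsin, and Ctsa is a serine carboxypeptidase. In spleen the family is known for protein breakdown in macrophages and for the processing of antigens and of the invariant chain of MHC class II.

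The arrays did not group as their titles do. In the truncated group the array of animal 1 correlated with array 1 of animal 2 at 0.987 over all probe sets, while array 1 of animal 2 correlated with arrays 2 and 3 labelled as the same animal at 0.976 each. In the full-length group the corresponding values were 0.989 between the animals, and 0.954 and 0.953 within animal 2. Arrays 2 and 3 correlated at 0.997 with each other in either group, with a median absolute difference of 0.099 log2 units in the truncated and 0.101 in the full-length group. Values below are therefore given by array, and each lysosomal cathepsin's difference also within the first arrays and within arrays 2 and 3. The animal means follow the titles, and a version that averaged the arrays by likeness (array 1 of both animals together, arrays 2 and 3 together) stands beside them for each tested cathepsin. Of the cathepsins tested, 0 passed an adjusted p of 0.05 by either way of averaging (limma, Benjamini-Hochberg over all genes), so the genes below are described as higher or lower in value only. Over all 11387 genes tested the count was also 0, while 1003 genes had an unadjusted p under 0.05 with the higher and 605 with the lower mean in truncated mice. Nothing in the labels says whether arrays of 1 animal came from separate extractions, and the small number of arrays limits the precision of every value. In bulk tissue, more cells of a type and more RNA per cell cannot be told apart.

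RefSeq (GRCm38.p6) gave a promoter window for 7 of the 10 genes, and the 250 bases before the start were searched on both strands for 3 motifs. The E-box CACGTG, the core of the CLEAR element that binds TFEB and its relatives, was found before 4 of the 7 genes (Ctsd, Ctsf, Ctsl and 1 of the starts of Ctsa), and before 6.02% of all 32851 windows. The window of Ctsl and that start of Ctsa lie inside the annotated gene, before an internal start, so among the 6 genes with a window outside the gene the E-box was found for 2 (Ctsd and Ctsf). The ETS-type site GAGGAAG, which the myeloid factor PU.1 can bind, was found before 1 of the 7 (Ctsk) and 10.6% of all windows. The GC box GGGCGG was found before 4 of the 7 (Ctsd, Ctsf, Ctss and Ctsz) and 32.7% of all windows. The windows of Ctss, whose arrays parted by genotype, and of Ctsd, whose arrays did not, are shown 5′ to 3′ on the gene's strand, with CACGTG in capitals, which the window of Ctss does not hold. These are letter matches only, with no binding measured here.
Ctss, chr3:95526536-95526785, plus strand: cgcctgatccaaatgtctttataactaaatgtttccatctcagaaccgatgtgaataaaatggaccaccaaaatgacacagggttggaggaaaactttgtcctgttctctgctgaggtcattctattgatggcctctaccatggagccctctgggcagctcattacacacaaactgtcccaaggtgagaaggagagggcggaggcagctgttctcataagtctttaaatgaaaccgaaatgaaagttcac
Ctsd, chr7:142387828-142388077, minus strand: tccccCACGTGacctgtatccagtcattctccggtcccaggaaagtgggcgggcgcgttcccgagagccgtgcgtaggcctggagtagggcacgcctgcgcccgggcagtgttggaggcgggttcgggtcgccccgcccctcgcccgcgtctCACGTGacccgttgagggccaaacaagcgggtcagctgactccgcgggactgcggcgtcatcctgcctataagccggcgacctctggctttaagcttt
The E-box lay at positions -245 to -240 and -98 to -93 from the start of Ctsd.

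Ctsl, an endopeptidase of broad specificity, had the largest difference of the cathepsins tested. Its log2 expression was 9.45 in truncated animal 1 and 9.66, 9.58 and 9.65 in the arrays of truncated animal 2, against 7.38 in full-length animal 1 and 6.93, 8.61 and 8.59 in those of full-length animal 2. All 4 truncated arrays lay close together and above every full-length array, and the full-length arrays split into a low and a high pair. The animal means were 9.54 ± 0.12 in truncated and 7.71 ± 0.47 in full-length mice (SD, n = 2 animals each), a difference of 1.83 with a 95% interval of 1.07 to 2.59, or 3.56-fold (limma, adjusted p = 0.0865). Within the first arrays the difference was 2.40, and within arrays 2 and 3 it was 1.01. Averaged by likeness it was 1.71 (limma, adjusted p = 0.596), with the full-length SD at 1.02. A dim second probe set of Ctsl was below the filter limit, the overall median of 4.76, on every array. It lay between 3.75 and 4.39 in truncated and between 3.36 and 3.67 in full-length arrays, without overlap. Without array 2 or array 3 of full-length animal 2 the gene passed (limma, adjusted p = 0.027 and 0.0191), as it did without that animal (0.0219), while without array 1 of that animal the adjusted p was 0.502, without truncated animal 1 it was 0.401 and without truncated animal 2 it was 0.356. The mean over both probe sets gave a difference of 1.16.

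Ctss, the endopeptidase that trims the invariant chain in antigen-presenting cells, differed by about the same amount in both pairs of arrays. It was at 10.60 in truncated animal 1 and 11.06, 10.87 and 10.83 in truncated animal 2, against 9.81 in full-length animal 1 and 9.72, 9.86 and 9.96 in full-length animal 2. The groups did not overlap, and the full-length arrays spanned less than the truncated ones. The means were 10.76 ± 0.22 in truncated and 9.83 ± 0.02 in full-length mice, a difference of 0.93 with an interval of 0.34 to 1.52, or 1.91-fold (limma, adjusted p = 0.184). It was 1.06 within the first arrays and 0.94 within arrays 2 and 3, and 1.00 averaged by likeness (adjusted p = 0.498). With all 8 arrays in the fit and the animal as a random block the gene passed (0.97, limma, adjusted p = 0.0213). It likewise passed with the array number as a replicate block (0.98, limma, adjusted p = 0.0283). Both fits follow the titled animals and took the correlation within an animal as 0.308 and 0.288. They therefore count arrays 2 and 3, which were near-duplicates, as more separate than they are, so these passes overstate the replication.

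Ctsh, an aminopeptidase that also acts as an endopeptidase, was at 8.44 in truncated animal 1 and 8.55, 9.48 and 9.54 in truncated animal 2, against 7.59 in full-length animal 1 and 7.16, 7.71 and 7.80 in full-length animal 2. The truncated arrays all lay above the full-length ones, with arrays 2 and 3 of truncated animal 2 highest. The means were 8.82 ± 0.53 in truncated and 7.58 ± 0.02 in full-length mice, a difference of 1.24 with an interval of 0.45 to 2.03, or 2.36-fold (limma, adjusted p = 0.186). It was 1.12 within the first arrays and 1.75 within arrays 2 and 3, and 1.44 averaged by likeness (adjusted p = 0.577). With the array number as a replicate block on 8 arrays the gene passed (1.36, limma, adjusted p = 0.0197). That fit too counts the near-duplicate arrays 2 and 3 as more separate than they are. Its second probe set, of a type that can match related sequences, gave the same difference of 1.24. It lay at 7.34 to 8.35 in truncated and 6.08 to 6.59 in full-length arrays. In the same 2 truncated arrays the class II invariant chain gene Cd74 was at 11.67 and 11.71, against 8.83 and 8.80 in the other truncated arrays, and the median of the B cell markers was at 5.41 and 5.75, against 4.66 and 4.41. Their part in the Ctsh values was not tested.

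Ctsb, a cathepsin that also removes dipeptides from the carboxyl end, was at 11.13 in truncated animal 1 and 11.25, 10.89 and 10.90 in truncated animal 2, against 10.02 in full-length animal 1 and 10.15, 10.58 and 10.65 in full-length animal 2. The groups did not overlap by this probe set, and arrays 2 and 3 of the groups lay nearest to each other. The means were 11.07 ± 0.08 in truncated and 10.24 ± 0.31 in full-length mice, a difference of 0.83 with an interval of 0.19 to 1.47, or 1.77-fold (limma, adjusted p = 0.249). The difference was 1.10 within the first arrays and 0.28 within arrays 2 and 3, and 0.69 averaged by likeness (adjusted p = 0.668). The mean over all probe sets of Ctsb gave 0.52. The other 4 probe sets of Ctsb differed by 0.82, 0.72, 0.15 and 0.10, and the arrays overlapped in each of them.

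Ctsa, the carboxypeptidase that protects the neuraminidase Neu1 and the galactosidase Glb1 in a lysosomal complex, was at 9.90 in truncated animal 1 and 9.83, 9.75 and 9.73 in truncated animal 2, against 9.59 in full-length animal 1 and 9.26, 9.32 and 9.33 in full-length animal 2. The groups were close but did not overlap. The means were 9.83 ± 0.09 in truncated and 9.44 ± 0.20 in full-length mice, a difference of 0.39 with an interval of -0.20 to 0.97 that included 0 (limma, adjusted p = 0.556). It was 0.44 within the first arrays and 0.41 within arrays 2 and 3, and 0.43 averaged by likeness (adjusted p = 0.681). Without full-length animal 2 it was 0.25. A dimmer probe set overlapped, at 5.45 to 5.92 in truncated and 5.39 to 5.65 in full-length arrays.

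**Figure D1:**
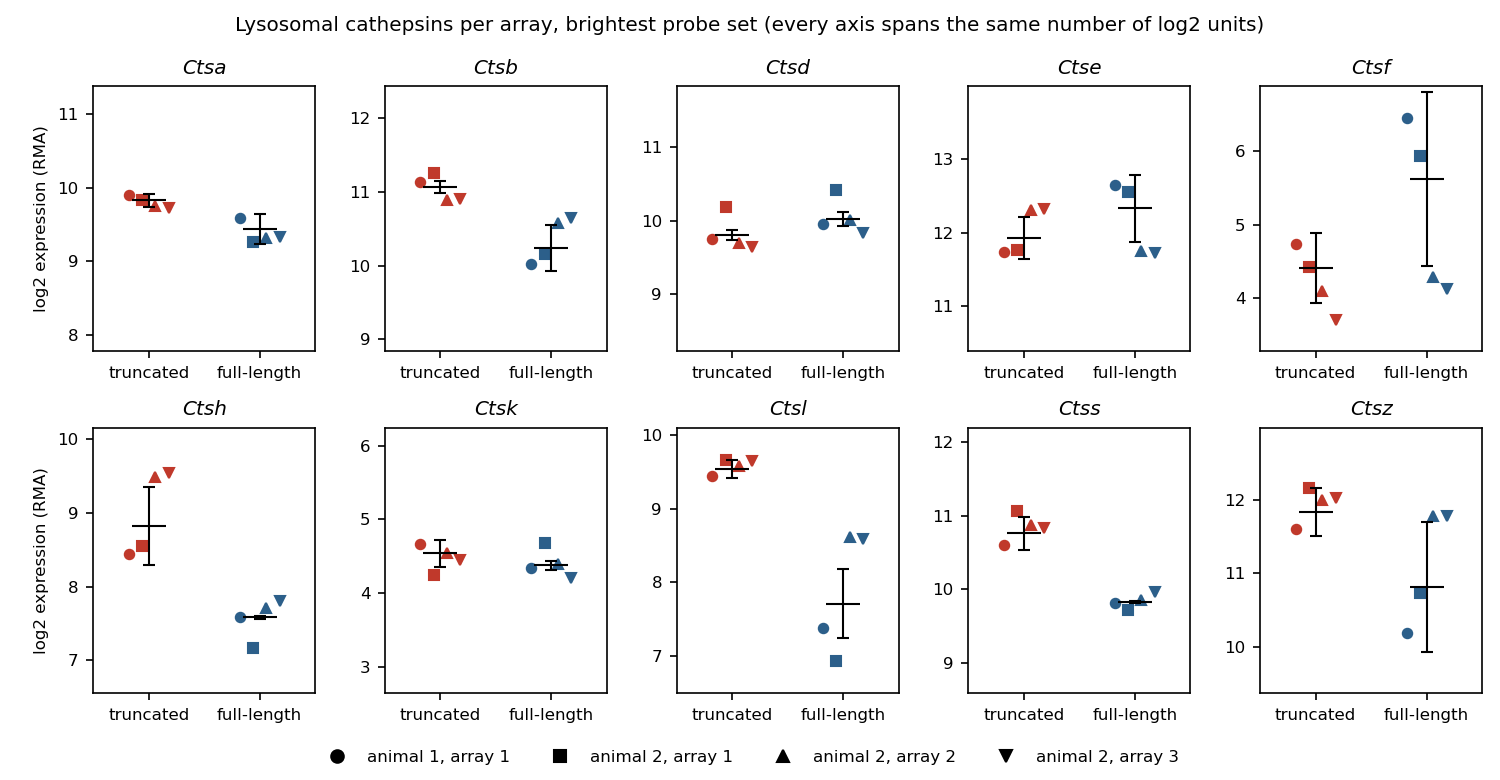
Log2 expression (RMA) of each of the 10 cathepsins by its brightest probe set, with truncated left of full-length in each panel, a symbol for each array, and the mean ± SD of the 2 animals in black. Every axis spans the same number of log2 units but starts at its own level. The truncated arrays lie above all full-length arrays for Ctsa, Ctsb, Ctsh, Ctsl and Ctss, while Ctsz, Ctse, Ctsd, Ctsf and Ctsk overlap.

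Ctsz, a carboxypeptidase abundant in myeloid cells, was at 11.60 in truncated animal 1 and 12.15, 11.99 and 12.02 in truncated animal 2, against 10.19 in full-length animal 1 and 10.73, 11.78 and 11.78 in full-length animal 2. By this probe set the groups overlapped, with arrays 2 and 3 of full-length animal 2 above truncated animal 1. The means were 11.83 ± 0.32 in truncated and 10.81 ± 0.88 in full-length mice, a difference of 1.02 with an interval of -0.15 to 2.19 (limma, adjusted p = 0.422). It was 1.42 within the first arrays and 0.22 within arrays 2 and 3, and 0.82 averaged by likeness (adjusted p = 0.815). Leaving out the single array of full-length animal 1 gave 0.39, and leaving out full-length animal 2 gave 1.64. The other 2 probe sets, of a type that can match related sequences, did not overlap and differed by 1.14 and 1.29, with the nearest truncated and full-length arrays at 10.37 and 10.30 in the first of them.

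The aspartic cathepsins did not follow this direction. Ctse, a protease known from red cells, stomach and antigen-presenting cells, was at 11.74 in truncated animal 1 and 11.76, 12.31 and 12.32 in truncated animal 2, against 12.65 in full-length animal 1 and 12.55, 11.75 and 11.73 in full-length animal 2. The pairs of arrays crossed: the difference was -0.85 within the first arrays and 0.57 within arrays 2 and 3. The means were 11.93 ± 0.28 in truncated and 12.33 ± 0.45 in full-length mice, a difference of -0.40 with an interval of -1.19 to 0.40 (limma, adjusted p = 0.679). Averaged by likeness it was -0.14 (adjusted p = 0.978). It was -0.08 without full-length animal 1, -0.26 without array 1 of full-length animal 2, -0.20 without truncated animal 1 and -0.71 without full-length animal 2. A second probe set, of a type that can match related sequences, differed by 0.36, the other way. The 2 full-length arrays highest in Ctse had erythroid marker medians of 10.21 and 10.19, against 8.05 and 8.06 in the other full-length arrays. In the truncated group the arrays higher in Ctse had the lower erythroid medians, 8.38 and 8.43, against 9.40 and 9.49.

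Ctsd, the main aspartic protease of the lysosome, was at 9.75 in truncated animal 1 and 10.19, 9.70 and 9.64 in truncated animal 2, against 9.96 in full-length animal 1 and 10.41, 10.01 and 9.83 in full-length animal 2. The groups overlapped. The means were 9.80 ± 0.07 in truncated and 10.02 ± 0.09 in full-length mice, a difference of -0.22 with an interval of -0.77 to 0.33 (limma, adjusted p = 0.752). It was -0.21 within the first arrays and -0.24 within arrays 2 and 3, and -0.23 averaged by likeness (adjusted p = 0.886). Without array 1 of full-length animal 2 it was -0.14.

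Ctsf and Ctsk, a papain-type endopeptidase of wide distribution and the collagen-degrading protease of osteoclasts, were dim. Ctsf was at 4.74 in truncated animal 1 and 4.42, 4.10 and 3.71 in truncated animal 2, against 6.45 in full-length animal 1 and 5.93, 4.29 and 4.13 in full-length animal 2. Only the 2 first arrays of the full-length group stood out. The gene passed the filter on low values through the full-length mice alone, whose animal means were 6.45 and 4.78 at a limit of 4.76. Its difference of -1.21 (interval -2.71 to 0.29) therefore had to point that way, and it did not pass (limma, adjusted p = 0.461). It was -1.61 within the first arrays and -0.30 within arrays 2 and 3. Averaged by likeness the gene did not pass the filter and was not tested. The other Ctsf probe set was below the limit by its animal means, though not on every array, and differed by -0.06. Ctsk lay between 4.25 and 4.66 in truncated and between 4.20 and 4.68 in full-length arrays, below the limit on every array, and was not tested. Of the 8 osteoclast markers, 4 passed the filter. Nfatc1 (0.21) and Tnfrsf11a (0.17) had a higher mean in truncated mice, Mmp14 (-0.50) and Acp5 (-1.47) a lower one. Acp5, the phosphatase of osteoclasts and macrophages, was named after its values were seen. It was at 8.79, 8.70, 9.92 and 9.86 in truncated arrays, against 11.23, 11.58, 9.19 and 9.24 in full-length arrays. The groups thus crossed in arrays 2 and 3.

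In all, 9 of the 10 cathepsins passed the filter. Of these 9, 6 had a higher and 3 a lower mean in truncated mice, with a median difference of 0.83, beside -0.01 over all 11387 genes tested. Ctsf is among the 3, and its direction was set by the filter. The other 8 had 6 higher and 2 lower means and a median of 0.88. The arrays of the groups did not overlap for 5 of the 9, all higher in truncated mice, and for 0 in the lower direction. Over all genes tested the shares were 10.3% higher and 8.75% lower. An unadjusted p under 0.05 was reached by 4 of the 9, Ctsl, Ctss, Ctsh and Ctsb, all higher, beside 8.81% of all genes higher and 5.31% lower. At an adjusted p under 0.05 the share over all genes was 0%, and at 0.10 there were 217 genes, with Ctsl as the only cathepsin. Without the first arrays of both full-length animals, which were high in erythroid markers, the median difference was 0.48. Ctsf did not pass the filter there, so this value stands beside the 0.88. Ctsl then differed by 0.94, Ctsb by 0.45 and Ctsz by 0.04, while Ctss (0.85), Ctsh (1.06) and Ctsa (0.51) moved less than 1.5 times. With the first arrays only, 1 per labelled animal, 5 cathepsins passed as higher (Ctsl, Ctss, Ctsh, Ctsb and Ctsz) and Ctse as lower, together with 1663 higher and 1394 lower genes in all (limma). Ctsf also had an adjusted p under 0.05 there, but its direction was again set by the filter. Within each group these 2 arrays were the closest of any pair from different labelled animals. That fit had 17.24 prior degrees of freedom, against 3.24 in the main fit. Its counts and passes may therefore overstate the replication.

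**Figure D2:**
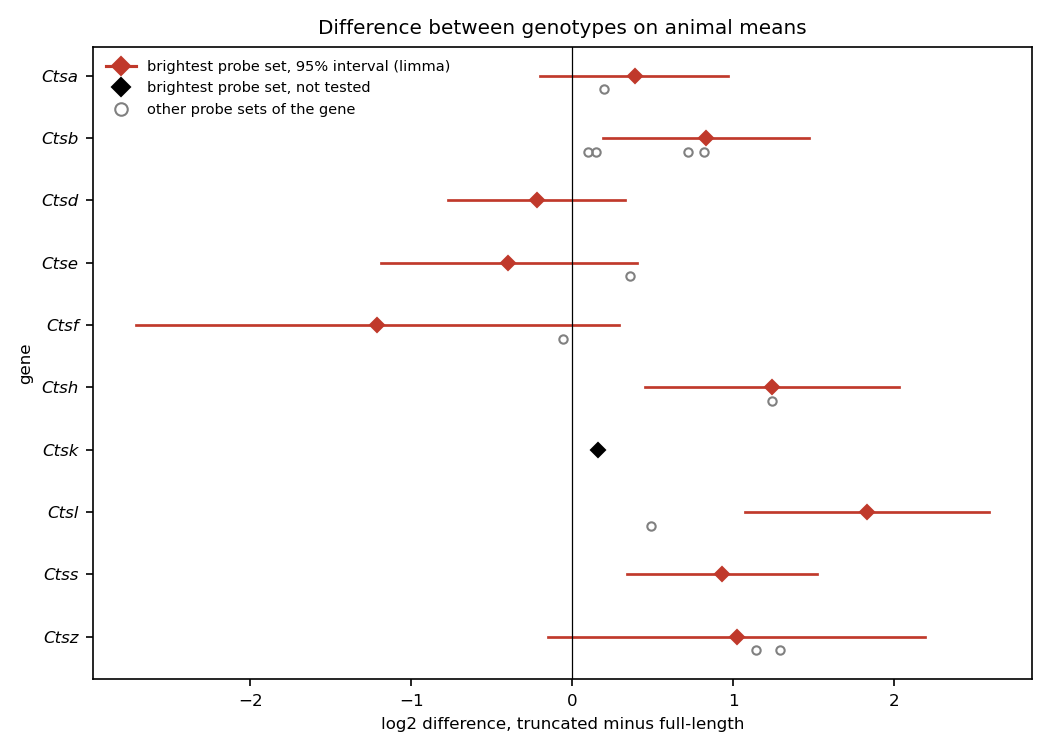
Log2 difference, truncated minus full-length, on animal means for the 10 cathepsins (n = 2 animals each). Diamonds are the brightest probe set with its 95% interval from limma, the black diamond is Ctsk, which was not tested, and open circles are other probe sets. The intervals of Ctsb, Ctsh, Ctsl and Ctss lie above 0, and those of the other 5 tested genes include 0.

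The genes whose values ran most like those of single cathepsins over the 8 arrays were taken from all tested genes with an SD of at least 0.5. They were Cd53 for Ctsl (Pearson's r = 0.997), Pik3c2a for Ctss (0.992), Antxr2 for Ctsh (0.995), B430306N03Rik for Ctsb (0.997), Sipa1 for Ctsz (0.996), Pgd for Ctsa (0.992), Myo1d for Ctse (0.995), Magef1 for Ctsd (0.929) and Tmem218 for Ctsf (0.994). The 8 arrays fall into 4 pairs of like arrays, so these values describe 4 levels rather than 8 independent samples.

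Other cathepsins showed higher values too. All 4 were tested and had a higher mean in truncated mice, with a median difference of 1.57. The arrays of 2 did not overlap, beside 10.3% of all genes tested in that direction. Ctsg, a serine protease of the neutrophil primary granule, averaged 11.34 ± 0.07 in truncated and 6.24 ± 3.19 in full-length mice. By array it was at 11.29, 11.45, 11.31 and 11.4 in truncated and 3.99, 4.54, 10.48 and 10.48 in full-length mice. Its difference thus came mostly from the first full-length arrays. Ctsc, the dipeptidyl peptidase that activates the granule serine proteases, was at 11.75, 12.12, 11.29 and 11.21 in truncated arrays, against 8.41, 7.87, 10.63 and 10.72 in full-length arrays, a difference of 2.57. Ctso differed by 0.57, and its arrays overlapped.

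Of the inhibitors that act on cathepsins, 9 of 13 were on the array and 7 were tested, 6 with a higher and 1 with a lower mean in truncated mice, for a median of 0.73. Arrays did not overlap for 2 of the 7, both higher, beside 10.3% of all genes higher. Stfa3, a stefin that blocks papain-type cathepsins inside cells, was at 11.27 and 11.63 in the first truncated arrays and 6.05 and 6.19 in arrays 2 and 3, against 5.85, 5.48, 6.53 and 6.50 in full-length arrays. Its difference of 3.60 thus came from the first truncated arrays. Serpinb1a, an inhibitor of granule serine proteases, was at 10.79 ± 0.01 in truncated and 9.37 ± 0.11 in full-length mice, without overlap (limma, adjusted p = 0.0828). Cst7, the cystatin of leukocyte lysosomes, differed by 1.21 with overlapping arrays. Cst3, the secreted cystatin C, named after its value was seen, was at 10.69 ± 0.13 in truncated and 9.96 ± 0.29 in full-length mice.

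Among 15 genes of cathepsin maturation and delivery, 11 had a higher and 4 a lower mean in truncated mice, with a median of 0.20. Arrays did not overlap for 5 of the 15, all higher, beside 10.3% of all genes higher and 8.75% lower. Psap, the precursor of the saposins and a carrier of lysosomal proteins, was at 11.66 ± 0.17 in truncated and 9.89 ± 0.42 in full-length mice, a difference of 1.77. Sort1, the sorting receptor sortilin, differed by 1.69, at 8.58, 8.34, 8.18 and 7.96 in truncated and 6.58, 6.75, 6.82 and 6.80 in full-length arrays. Nagpa, which uncovers the mannose 6-phosphate tag, differed by 0.85. The protease Lgmn, which cleaves several papain-type precursors, differed by 0.24 with overlapping arrays and was named after its value was seen.

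Of the biogenesis factors and proton pump genes, 13 of 15 were on the array and 12 were tested, 9 with a higher and 3 with a lower mean in truncated mice, for a median of 0.44. Arrays did not overlap for 5 higher and 1 lower gene (Mcoln1), beside 10.3% of all genes higher and 8.75% lower. Tfec, a relative of TFEB expressed in macrophages, was at 8.10, 8.35, 7.97 and 8.02 in truncated and 3.43, 3.10, 6.47 and 6.62 in full-length arrays, a difference of 3.69. Cd68, a lysosomal membrane protein of macrophages, was at 8.81 ± 0.29 in truncated and 7.08 ± 0.29 in full-length mice. Mitf overlapped between groups, at 6.35 to 7.08 in truncated arrays, against 3.81, 3.45, 8.32 and 8.29 in full-length arrays. Tfeb itself differed by -0.01 and Tfe3 by -0.03, both named after their values were seen.

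The 10 partner and substrate genes had a median difference of 0.21, with 6 higher and 4 lower means in truncated mice. Arrays did not overlap for 3, all higher, beside 10.3% of all genes higher. H2-DMa, which loads peptides on MHC class II, was at 7.63 ± 0.48 in truncated and 6.47 ± 0.03 in full-length mice, without overlap. Neu1 differed by 0.58 with overlapping arrays. Psap, which is also on this list, had its largest difference. In each of the 5 lists 0 genes passed an adjusted p of 0.05 (limma). An unadjusted p under 0.05 was reached by 2 other cathepsins, 3 inhibitors, 4 maturation and delivery genes, 4 biogenesis and pump genes and 2 partner genes, all with the higher mean in truncated mice, beside 8.81% of all genes. Igf2r is among the 4 maturation and delivery genes, and its direction was set by the filter.

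**Figure D3:**
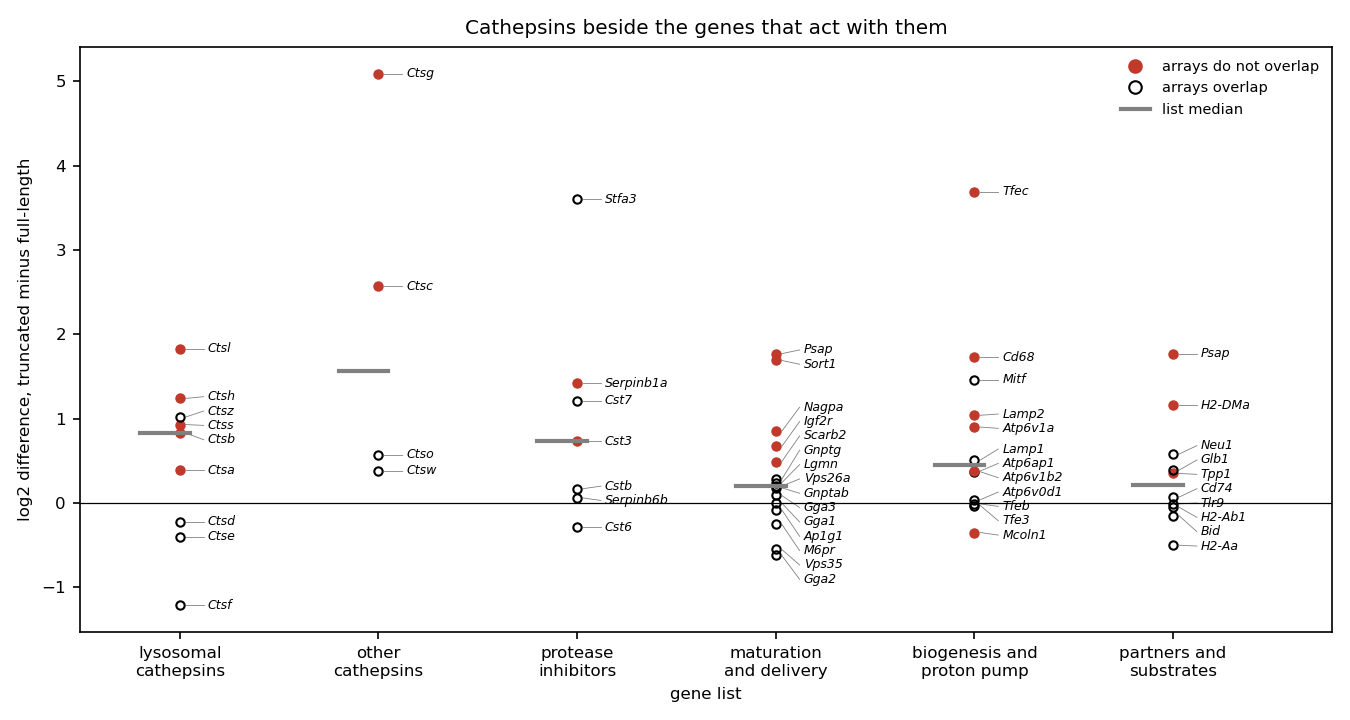
Log2 difference, truncated minus full-length, for the tested cathepsins and the tested genes of 5 lists of genes that act with them. Filled red points are genes whose arrays do not overlap between the groups, open points are genes whose arrays overlap, and grey bars are list medians. The median is 0.83 for the lysosomal cathepsins, 1.57 for other cathepsins and 0.20 for maturation and delivery genes.

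Markers of several cell types differed between the groups. The summed level (sum of linear RMA values) of 16 monocyte and macrophage markers was 10900 to 11600 in truncated and 3220 to 4230 in full-length arrays. That of 11 neutrophil granule markers was 41400 to 50300 in truncated and 2840 to 17100 in full-length arrays, and the low end was the 2 first full-length arrays. Erythroid markers (12 genes) summed to 5330 to 10500 in truncated and 5190 to 20800 in full-length arrays. Dendritic cell markers (7 genes) summed to 271 to 461 and 222 to 236, B cell markers (8) to 270 to 488 and 221 to 231, and T and NK cell markers (7) to 198 to 218 and 198 to 232 in truncated and full-length arrays. The list medians of the first 2 overlapped, at 4.99 to 5.67 and 4.95 to 5.04 for dendritic cell markers. For B cell markers they were 4.41 to 5.75 and 4.42 to 4.64. Only 4 of the dendritic and 3 of the B cell genes passed the filter. Stromal markers (9) summed to 479 to 1800 and 476 to 1140, osteoclast markers (8) to 980 to 1550 and 1220 to 3670, and platelet markers (6) to 936 to 1100 and 1120 to 1240. A linear sum gives most weight to genes with high values. By list median, platelet markers were higher in truncated arrays, at 6.01 to 6.95 against 5.5 to 5.68. Of the 4 platelet genes tested, 3 had a higher mean and 1, Gp5, a lower one (8.95 against 9.61). Stromal medians were 4.55 to 4.74 and 4.31 to 4.67, and osteoclast medians 4.79 to 4.95 and 4.57 to 4.95, so both overlapped. RMA values have no 0, but 3 of 8 B cell, 3 of 7 T and NK cell, 4 of 9 stromal, 3 of 8 osteoclast and 2 of 7 dendritic cell markers lay below the limit of 4.76 on every array. The part of these markers in the cathepsin values was not tested.

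The labels give leukemic spleen cells. The median of the 9 leukemic myeloid progenitor markers was 7.48, 7.62, 8.49 and 8.56 in truncated arrays, against 6.79, 6.41, 9.11 and 9.15 in full-length arrays, so that arrays 2 and 3 were the higher ones in both groups. Of the 9 markers, 6 had a higher and 3 a lower mean in truncated mice, and 0 passed an adjusted p of 0.05 (limma). Cd34 is among the 6. It passed the filter on low values through the truncated mice alone, so its direction was set by the filter. Single markers did not run together, as shown by a pair named after their values were seen. Kit, the stem cell factor receptor, was at 6.63, 7.62, 9.92 and 9.96 in truncated arrays, against 7.46, 7.74, 10.36 and 10.35 in full-length arrays. Cd34, a surface protein of progenitors, was at 7.48, 7.37, 5.46 and 5.23 in truncated arrays, against 3.47, 3.32, 5.28 and 5.19 in full-length arrays.

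**Figure D4:**
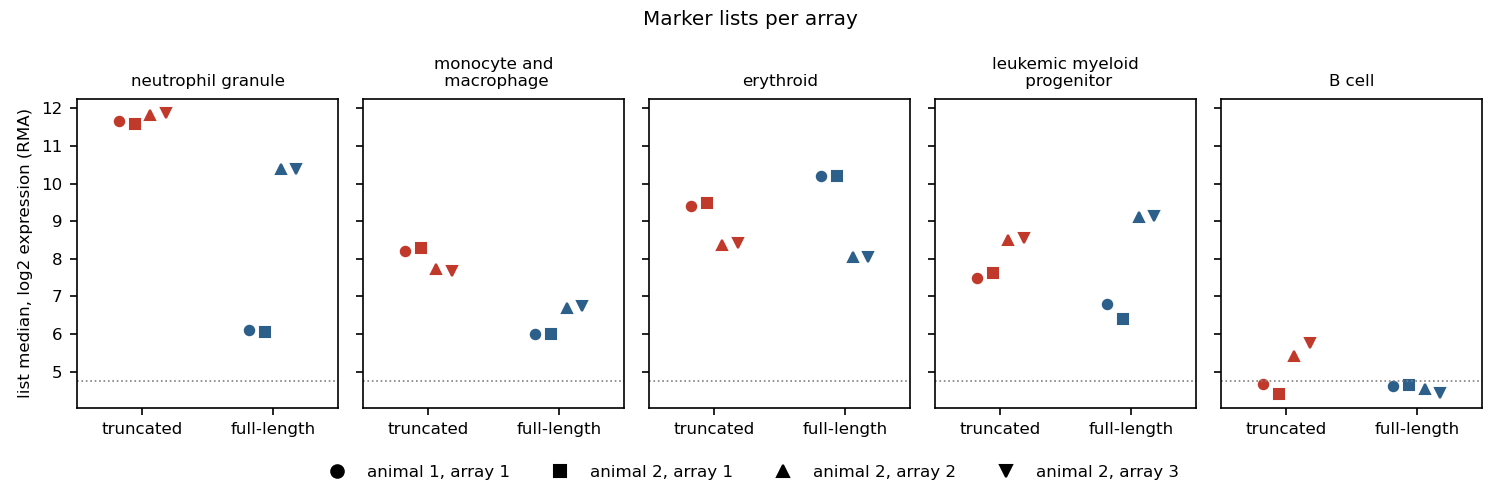
Median log2 expression of 5 marker lists on each array, with truncated left of full-length and a symbol for each array. The dotted line is the median over all probe sets, 4.76. Monocyte and macrophage medians lie between 7.68 and 8.28 in truncated and between 6.0 and 6.74 in full-length arrays, and in both groups array 1 of animal 2 sits beside animal 1.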

How the data were processed

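RNA from spleen cells was hybridised to 8 Affymetrix arrays. The deposited values are on a log2 scale and were made by the authors with RMA, per the submitters' processing notes, with the base inferred from their range (1.79 to 14.11), since no source used here states it. Of 45101 probe sets, 34945 had 1 gene symbol, 932 had several, 9160 had none and 64 were controls. Probe sets without a single symbol were left out.

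Each gene was read by its brightest probe set, the one with the highest mean over the means of the labelled animals. Arrays were averaged by labelled animal, and genes above the overall median of 4.76 in at least 2 animals were tested (11387 of 18193). Truncated was compared with full-length by limma 3.58.1 in R 4.3.3, with Benjamini-Hochberg adjustment over all genes tested, 2 residual and 3.24 prior degrees of freedom. The code was tested on simulated data. Same-numbered arrays of the 2 genotypes deviated together (r = 0.183, 0.184 and 0.148 for arrays 1, 2 and 3 of animal 2), so the array number was treated as pairing the arrays, and the fit with it as a block is given where it changes a call. Arrays 2 and 3 also correlated across numbers (0.165 and 0.171), and array 1 correlated with them at -0.189 to -0.164, so the numbers separate array 1 from arrays 2 and 3 and do not separate those from each other.

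The text names all members, and the 3 genes of each pathway list with the largest difference where none passed. Marker lists are given as summed levels or medians, and levels of different probe sets were not ranked. Other genes were named after their values were seen. The members and lists were chosen with earlier results of these data known. Alternatives covered the filter, the probe set rule, normalization, blocks and leaving out arrays or animals. Averaging by likeness was added after seeing the data.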

Additional observations from a re-analysis of the deposited data

How the results depend on the processing

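Of all genes tested, 0 passed an adjusted p of 0.05 in either direction on animal means (limma). The counts were 2 higher and 1 lower with an intensity trend and robust prior, 0 higher and 1 lower with all 4 animals above the filter, 264 higher and 81 lower with 8 arrays and the animal as a random block, and 1663 higher and 1394 lower with 1 array per animal. With the array number as a replicate block they were 412 higher and 179 lower. Against the fit with the animal as a random block alone, the replicate block made Ctsh pass (adjusted p = 0.0197, against 0.118). Ctss passed with it (0.0283) and without it (0.0213), and no other cathepsin passed in either fit. Both fits on 8 arrays count the near-duplicate arrays 2 and 3 as more separate than they are, so their counts and passes overstate the replication. The fit with 1 array per animal rests on the first arrays, which were alike within each group, so its counts may overstate it too. Leaving out an array or animal gave 0 to 447 higher and 0 to 185 lower. The most came without full-length animal 2, followed by 373 and 46 without its array 3 and 288 and 41 without its array 2, and 1 and 1 came without array 2 or 3 of truncated animal 2. The median difference of the cathepsins was 0.83, or 0.88 without Ctsf. It was 0.49 in arrays 2 and 3 of animal 2 alone and 0.48 once the erythroid-rich pair of full-length arrays was left out. Ctsf did not pass the filter under either of these settings, so both values stand beside 0.88. Under the same settings Ctse turned to 0.57 and 0.19. Over all 22 alternatives the difference stayed above 0 for Ctsl (0.94 to 2.40), Ctss (0.77 to 1.09), Ctsh (0.87 to 1.75), Ctsb (0.28 to 1.10), Ctsa (0.25 to 0.53) and Ctsz (0.04 to 1.64), and below 0 for Ctsd (-0.31 to -0.12). The cause of these shifts was not tested. With 2 animals a group, a fit without an animal, or without the single array of animal 1, holds a lone animal in that group. The spread of that group is assumed to equal that of the other group. Leaving out 1 array of animal 2 keeps 2 animals in each group.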
